A study of Mus musculus with 2 samples.

Results

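The genes described here encode the machinery that holds and moves chromosomes on the spindle: the spindle assembly checkpoint, the chromosome passenger complex, the centromere and outer kinetochore, the spindle kinases with their assembly factors, and the motors of the spindle and its midzone. They were taken as a list of 39 symbols, chosen with earlier results of these data known. All 39 were found by Ensembl identifier in a deposited table of 36227 mouse genes, of which 18017 had a count. Each of the 39 had counts in both libraries. RNA was measured in 2 libraries of oocytes at metaphase II from ICR mice, an outbred strain. The slimming library came from mothers that were moved to enriched-environment cages, and the control library from mothers that stayed in the normal cage on a standard diet. All mothers, the controls included, had grown up in standard housing and were obese by 12 weeks, the cages then differed for 4 weeks, and oocytes were taken at 16 weeks. In each group 3 mice gave 3 oocytes each, and the 9 oocytes were lysed in 1 tube, so a group is 1 pooled library and differences between mothers cannot be seen. There is no replicate and no test of the groups, and every difference below describes these 2 libraries. The study asks how the mother's way of life relates to the RNA of her oocytes.

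An oocyte at metaphase II waits for the sperm with a bipolar spindle already built and its sister chromatids attached through their kinetochores. It makes almost no new RNA, so what is measured is the part of a store laid down during growth that remained and was primed by oligo(dT). The checkpoint proteins delay anaphase while kinetochores lack microtubules, the chromosome passenger complex destabilises wrong attachments, and the NDC80 and MIS12 complexes form the plate that grips the microtubule. Mouse oocytes lack centrioles and build the spindle from many small organising centres, with Aurora A, TPX2, TACC3, the polymerase CKAP5 and NUMA at the poles. In bulk RNA of pooled cells, fewer cells of a kind and less RNA per cell cannot be told apart.

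The slimming library held 20947962 counts and the control library 20242289. A level is given in CPM, the count scaled to the library total. A log2 ratio is slimming over control after scaling the libraries by TMM (trimmed mean of M values) and adding 0.5 to each count, and its 95% interval is an exact (Clopper-Pearson) counting interval. The intervals cover counting error only and leave out PCR duplicates and differences between animals. Oocyte markers (Gdf9, Bmp15, Zp3, H1foo, Mos, Nlrp5 and Ooep) summed to 97259 CPM in slimming oocytes and 99527 CPM in control oocytes. Most of each sum came from Gdf9 and H1foo, both somewhat lower in slimming oocytes, so the sums say little about the others. Zp3 had 2450 CPM in slimming oocytes and 1172 CPM in control oocytes. Bmp15 had 622 CPM in slimming oocytes and 512 CPM in control oocytes, and Mos, Nlrp5 and Ooep differed less. Of 12 cumulus and granulosa markers, 8 were at 0 in slimming oocytes and 5 in control oocytes. Amh, Amhr2, Foxl2, Fshr and Ptgs2 were at 0 in both, and the list summed to 865 counts in slimming oocytes and 1154 counts in control oocytes, mostly from Cyp19a1. Inha had 0 counts in slimming oocytes and 63 in control oocytes, and Hsd3b1 had 1 in slimming oocytes and 72 in control oocytes. Inhba (12 counts) and Tnfaip6 (8 counts) were found in control oocytes alone. Nr5a2 had 136 counts in slimming oocytes and 204 in control oocytes, and Has2 had 5 in slimming oocytes and 2 in control oocytes. Of 8 immune markers, 5 were at 0 in slimming oocytes and 0 in control oocytes, with sums of 166 counts in slimming oocytes and 319 counts in control oocytes. Those at 0 in the slimming library alone were Fcer1g (62 counts in control oocytes), Tyrobp (57), C1qa (11), Csf1r (8) and Lyz2 (1). The single count of Lyz2 is too few to tell the libraries apart. Laptm5 went the other way, with 86 counts in slimming oocytes and 75 in control oocytes. The part of these other cells in the ratios below was not tested.

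Many genes of mitosis share a promoter element, the cell cycle genes homology region, with the core letters TTTGAA, which is bound by the DREAM and MuvB complexes. Promoter sequences (RefSeq, GRCm38.p6, 250 bases before to 50 bases after the transcript start) were at hand for 32 of the members, as 35 promoters; those of Incenp, Aurkb, Spc24, Kif20a, Tpx2, Nsl1 and Haus1 were not matched. TTTGAA or its reverse complement TTCAAA stood in 18 of these 35 promoters (51.4%), in 17.9% of all 32851 promoters and in 11.7% of 5688 promoters of genes expressed in these oocytes. Within 50 bases of the start it stood in 15 of 35 (42.9%), in 4.94% of all promoters and in 3.23% of those of expressed genes. The genes with it near the start included Aurka, Bub1b, Bub3, Cenpa, Cenpf, Ckap5, Kif11, Ndc80, Plk1, Prc1, Spc25, Spdl1 and Ttk. The following windows of 30 bases show how alike the element looks in 7 of them, where it reads TTTGAA on the strand of the gene (capitals). Each is written 5′ to 3′ on that strand, with GRCm38 coordinates.
Aurka, chr2:172370521-172370550, minus strand: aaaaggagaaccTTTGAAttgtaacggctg
Bub1b, chr2:118598231-118598260, plus strand: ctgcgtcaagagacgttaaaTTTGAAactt
Cenpa, chr5:30666890-30666919, plus strand: ggcgggtgatttTTTGAActgctggcgacc
Cenpf, chr1:189688067-189688096, minus strand: ggcggcgggcagTTTGAAtcgctcgtgctg
Plk1, chr7:122159453-122159482, plus strand: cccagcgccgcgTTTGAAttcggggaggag
Prc1, chr7:80294434-80294463, plus strand: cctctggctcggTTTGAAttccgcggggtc
Spc25, chr2:69206172-69206201, minus strand: ggcggtggagagTTTGAAattgaaagactg

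The element began between 2 and 40 bases after the first transcribed base in 6 of these genes, and 5 and 30 bases before the 2 annotated starts of Prc1. A match is a description of letters and not a shown binding site. Among expressed members, the 12 with the element near the start had a median log2 ratio of 0.11 (range -0.35 to 0.47), and the 11 without it had -0.05 (range -0.45 to 0.77), so the ranges overlapped. In 81 other spindle and kinetochore genes with a promoter at hand, the element stood near the start in 29 of 94 promoters (30.9%).

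At the other end of the transcript, stored oocyte mRNAs often carry the cytoplasmic polyadenylation element TTTTAT, through which their poly(A) tails are lengthened. The last 100 bases of the longest coding transcript (GENCODE vM21, GRCm38) held TTTTAT, searched on the transcript strand, in 11 of the 39 members (28.2%) and in 951 of 5595 expressed genes. The 4 windows of 30 bases below, with TTTTAT in capitals, are shown because the poly(A) signal AATAAA follows TTTTAT closely in them. Aurkb lies on chromosome 11, Bub1b and Ckap5 on chromosome 2 and Plk4 on chromosome 3.
Aurkb: aacaTTTTATaataaagtcttaaatgtttc
Bub1b: tgtaTTTTATaataaaatagtttttgttac
Ckap5: agacTTTTATaaataaagtttgcattaact
Plk4: tacaTTTTATaaaataaacacagtggtaag

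Expressed members with TTTTAT had a median log2 ratio of 0.10 (n = 10, range -0.35 to 0.61), and those without it had 0.04 (n = 19, range -0.45 to 0.77). The ranges of the pair of groups overlapped. Their median levels, in plain CPM and not per kilobase, were unlike. Members with TTTTAT had medians of 30.5 CPM in slimming oocytes and 21.2 CPM in control oocytes. Members without it had medians of 226 CPM in slimming oocytes and 249 CPM in control oocytes. The levels overlapped widely. In slimming oocytes they ran from 8.74 CPM (Aurkc) to 858 CPM (Bub1b) with TTTTAT, and from 10.2 CPM (Spc25) to 1491 CPM (Cdca8) without it.

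No spindle, kinetochore or checkpoint gene on the list differed 2-fold between the libraries. Summed over all 39, they held 7581 CPM in slimming oocytes and 7481 CPM in control oocytes. A gene was called expressed at 10 CPM or more in at least 1 library, which 29 members passed, 27 of them in both libraries. Aurkc passed only through the control library and Spc25 only through the slimming library. None of the 29 was 2-fold or more apart, where the 2-fold limit was passed upward by 2.73% and downward by 1.94% of 5714 expressed genes. At a 1.5-fold limit 2 of the 29 were higher, against 10.3% of expressed genes, and 0 were lower, against 7.16%. For 29 genes, a count of 0 is near the 2-fold background. Without any minimum level, 0 of 39 members were 2-fold apart, against 17.7% higher and 20.9% lower among all 18017 genes with a count, of which 5714 reached 10 CPM. Among genes of at least 100 CPM in 1 library, 0 of 18 members were 2-fold apart, against 0.735% higher and 0.674% lower of 1632 genes. The median log2 ratio of the 29 was 0.06 and that of all expressed genes 0.02. The median size of the log2 ratio, regardless of sign, was 0.20 for the 29 members, 0.26 for all expressed genes and 0.22 for all genes of at least 100 CPM.

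**Figure D1:**
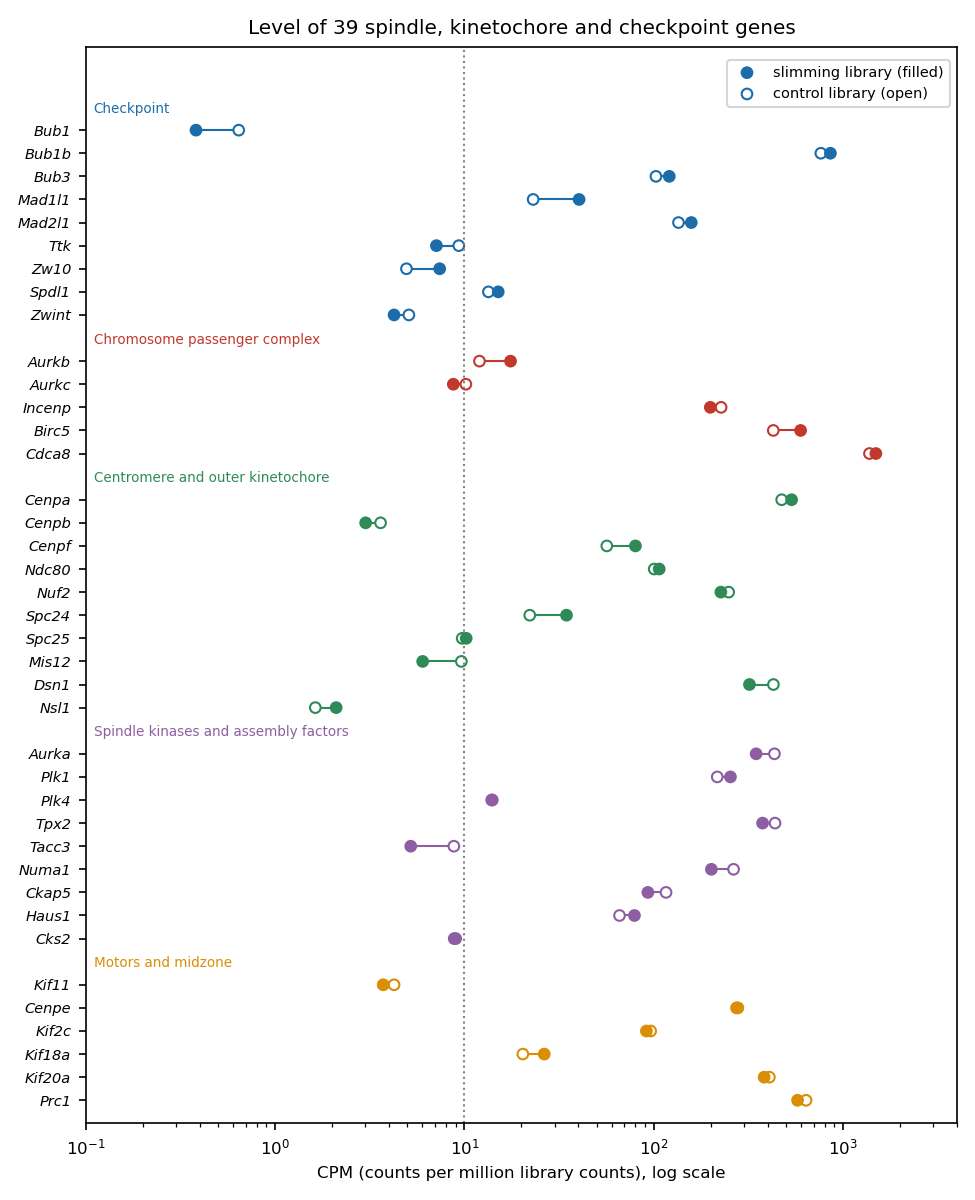
Level of each of the 39 genes in CPM on a log axis, by role, in the slimming library (filled circles) and in the control library (open circles), joined by a line. The dotted line marks 10 CPM. Levels run from under 1 CPM for Bub1 to 1491 CPM in slimming oocytes and 1379 CPM in control oocytes for Cdca8, far more than any gene differs between libraries.

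**Figure D2:**
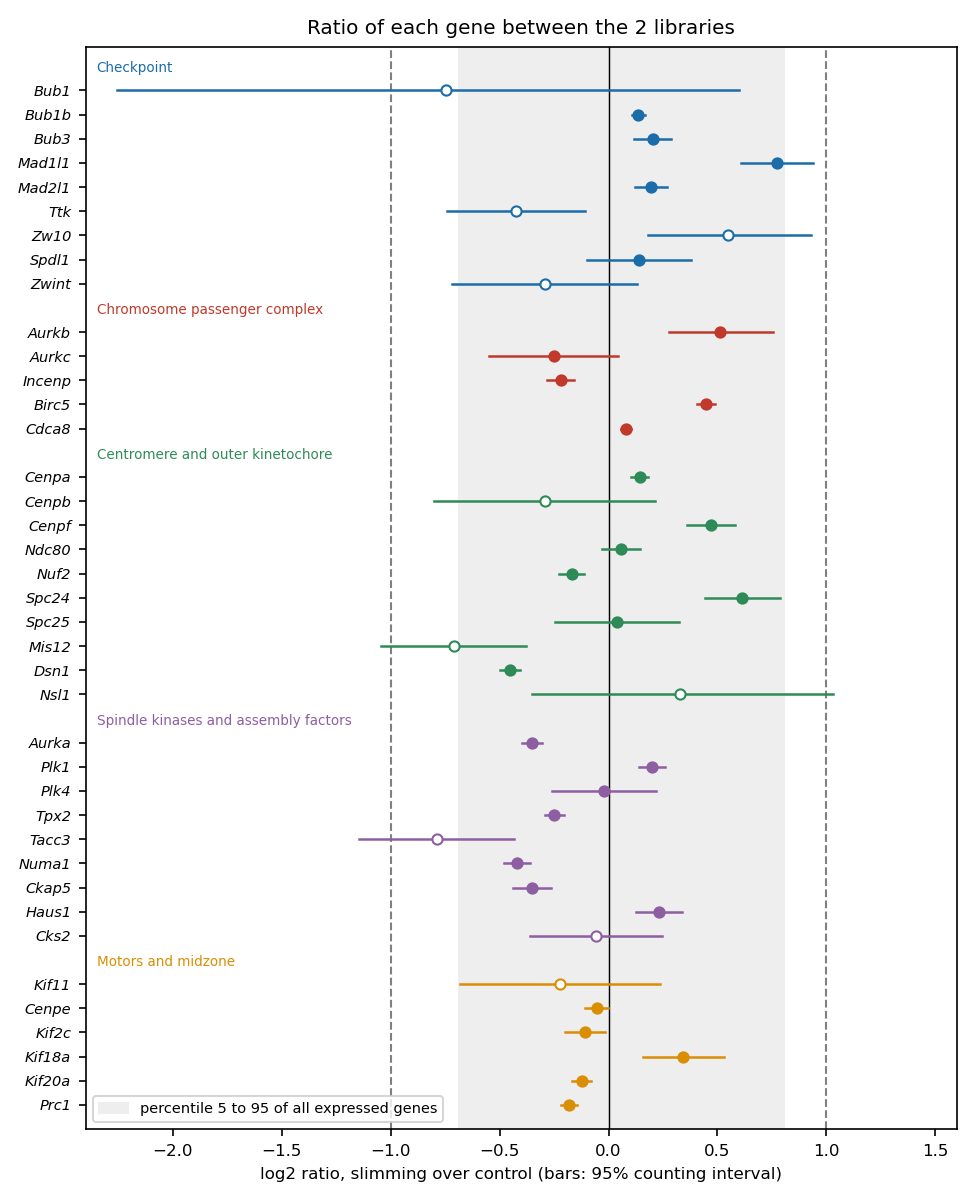
Log2 ratio of slimming over control for each gene, with its 95% counting interval as a bar; open circles are genes under 10 CPM in both libraries. The dashed lines mark 2-fold, which no point reaches, and the grey band spans percentiles 5 to 95 of all expressed genes (-0.69 to 0.81), which holds all 29 expressed members.

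Of the 9 checkpoint genes 5 were expressed. Bub1b (ENSMUSG00000040084, chromosome 2) encodes BubR1, a core inhibitor of the anaphase-promoting complex that also steadies attachments. It was the most abundant checkpoint mRNA per kilobase, at 234 CPM in slimming oocytes and 208 CPM in control oocytes. In plain CPM it had 858 CPM in slimming oocytes and 763 CPM in control oocytes, a log2 ratio of 0.14 (0.11 to 0.17). Bub3, its binding partner, had 121 CPM in slimming oocytes and 103 CPM in control oocytes. Mad2l1, the protein that changes shape at unattached kinetochores to start the signal, had 158 CPM in slimming oocytes and 135 CPM in control oocytes. The log2 ratios of Bub3 and Mad2l1 were 0.20 and 0.19.

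Mad1l1 (ENSMUSG00000029554, chromosome 5), the kinetochore anchor of Mad2, differed most among the expressed members. It had 845 counts (40.3 CPM) in slimming oocytes and 467 counts (23.1 CPM) in control oocytes, 1.71-fold higher, at a log2 ratio of 0.77 (0.61 to 0.94). Per kilobase, the level of Mad1l1 was 15.3 CPM in slimming oocytes and 8.74 CPM in control oocytes. Spdl1 (Spindly), which brings dynein to kinetochores, had 15.1 CPM in slimming oocytes and 13.4 CPM in control oocytes, with an interval that included 0 (-0.10 to 0.38). All 5 expressed checkpoint members had log2 ratios above 0, as did 2937 of 5714 expressed genes, and their median was 0.19. For 4 of the 5 the interval lay above 0, as it did for 37.7% of expressed genes and 43.4% of genes of at least 100 CPM, so such an interval is common at this depth. A ratio of the size of Mad1l1 is inside the range of expressed genes in general, at percentile 94.3.

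The other 4 checkpoint genes were scarce. Bub1 (ENSMUSG00000027379, chromosome 2), the kinase that marks centromeric histone H2A and recruits the other Bub proteins, had only 8 counts in slimming oocytes and 13 in control oocytes. That is 0.382 CPM in slimming oocytes and 0.642 CPM in control oocytes, with a log2 ratio of -0.75 whose interval spans -2.26 to 0.60. Per kilobase of transcript, Bub1b stood 2095-fold above Bub1 in slimming oocytes and 1109-fold above it in control oocytes, a ratio within a library that rests on those few Bub1 counts. Ttk (MPS1), the kinase at the head of the checkpoint, had 149 counts (7.11 CPM) in slimming oocytes and 189 counts (9.34 CPM) in control oocytes, at a log2 ratio of -0.42 (-0.74 to -0.11). Zw10, part of the RZZ complex that loads Spindly, went the other way with 155 counts in slimming oocytes and 100 in control oocytes (log2 0.55, 0.18 to 0.93). Zwint, which binds KNL1, had 89 counts in slimming oocytes and 103 in control oocytes, with an interval that included 0.

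In the chromosome passenger complex the non-kinase subunits were far more abundant per kilobase than the kinases Aurkb and Aurkc. Cdca8 (borealin, ENSMUSG00000028873, chromosome 4), which helps to target the complex to centromeres, had the highest CPM of all 39 genes. Per kilobase it had 917 CPM in slimming oocytes and 848 CPM in control oocytes, and its order against Cenpa depended on which annotated transcripts were used. It had 31229 counts (1491 CPM) in slimming oocytes and 27919 counts (1379 CPM) in control oocytes, a log2 ratio of 0.08 (0.06 to 0.10). Birc5 (survivin, ENSMUSG00000017716, chromosome 11), the subunit that reads phosphorylated histone H3, had 597 CPM in slimming oocytes and 428 CPM in control oocytes. It was 1.36-fold higher, at a log2 ratio of 0.45 (0.41 to 0.49). Incenp, the scaffold, leaned the other way, with 199 CPM in slimming oocytes and 227 CPM in control oocytes (log2 -0.22, -0.28 to -0.16). The 3 subunits that anchor the kinase therefore did not share a direction.

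Of the 3 Aurora kinases, Aurka (ENSMUSG00000027496, chromosome 2), the kinase of the spindle poles, stood highest. Per kilobase it had 182 CPM in slimming oocytes and 228 CPM in control oocytes. Aurkb, the passenger kinase of mitosis, had 8.98 CPM per kilobase in slimming oocytes and 6.16 in control oocytes, and Aurkc, its counterpart in germ cells, had 6.24 in slimming oocytes and 7.26 in control oocytes. Aurkb had 367 counts in slimming oocytes and 243 in control oocytes (log2 0.51, 0.28 to 0.75), and Aurkc had 183 in slimming oocytes and 206 in control oocytes (log2 -0.25, -0.55 to 0.04). The intervals of these log2 ratios do not overlap. Per kilobase the order of the pair turned, with Aurkb 1.44 times Aurkc in slimming oocytes and 0.848 times Aurkc in control oocytes. Across annotated transcript lengths these ratios run from 1.19 to 1.53 in slimming oocytes and from 0.698 to 0.903 in control oocytes. No counting interval was computed for them. In plain CPM Aurkb was above Aurkc in both libraries, at 17.5 against 8.74 in slimming oocytes and 12.0 against 10.2 in control oocytes. The turn thus appears only after division by transcript length. Aurkb and Aurkc are close paralogs, and no source used here says how reads with several matches were counted, so their split is uncertain.

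**Figure D3:**
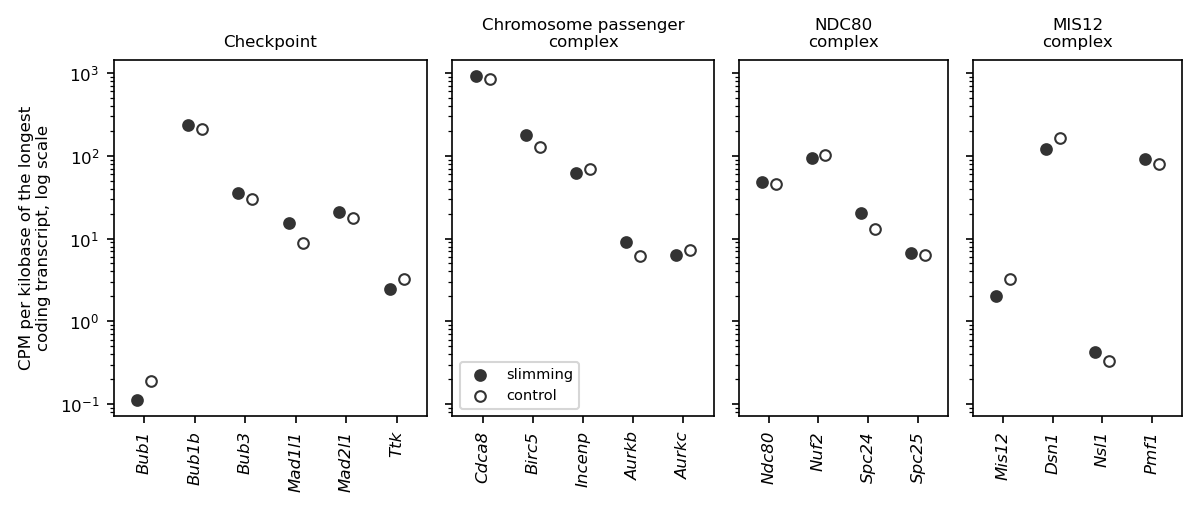
Level per kilobase of the longest coding transcript (log axis, CPM) for the subunits of 4 assemblies in the slimming (filled, left of each pair) and control (open, right) libraries. Pmf1, the fourth MIS12 subunit, is not among the 39. Subunits of 1 assembly lie far apart in level, and their order is the same in both libraries apart from that of Aurkb and Aurkc.

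At the centromere and kinetochore, Cenpa (ENSMUSG00000029177, chromosome 5), the histone H3 variant that marks the centromere, had 535 CPM in slimming oocytes and 474 CPM in control oocytes (log2 0.14, 0.10 to 0.18). Cenpf, a very large kinetochore and microtubule-binding protein, had 80.1 CPM in slimming oocytes and 56.5 CPM in control oocytes, at a log2 ratio of 0.47 (0.36 to 0.58). Cenpb, which binds a DNA box in centromeric repeats, was scarce, with 63 counts in slimming oocytes and 73 in control oocytes.

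The NDC80 complex, the rod that binds the microtubule, has 4 subunits that are present once each in the protein complex, but their mRNA levels were uneven. Nuf2 was highest per kilobase, with 94.1 CPM in slimming oocytes and 103 CPM in control oocytes. Ndc80 had 48.6 CPM per kilobase in slimming oocytes and 45.7 in control oocytes. Spc24 had 20.4 in slimming oocytes and 13.0 in control oocytes, and Spc25 had 6.69 in slimming oocytes and 6.37 in control oocytes. Nuf2 exceeded Spc25 14.1-fold in slimming oocytes and 16.2-fold in control oocytes. With other annotated transcripts this ratio reached up to 26.6 in slimming oocytes and 30.7 in control oocytes. With its shortest transcript Spc24 reached 55.2 CPM per kilobase in slimming oocytes and 35.3 in control oocytes, so its order against Ndc80 in slimming oocytes depends on the transcript.

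Between the libraries, Spc24 (ENSMUSG00000074476, chromosome 9) was 1.53-fold higher, with 725 counts (34.6 CPM) in slimming oocytes and 448 counts (22.1 CPM) in control oocytes (log2 0.61, 0.44 to 0.79). It was the only expressed member besides Mad1l1 beyond 1.5-fold. Nuf2 was at 226 CPM in slimming oocytes and 249 CPM in control oocytes (log2 -0.17, -0.23 to -0.11). For Ndc80 and Spc25 the intervals included 0, at log2 ratios of 0.06 and 0.04. The 4 subunits thus held 1 gene with an interval above 0, Spc24, 1 with an interval below 0, Nuf2, and 2 with intervals that included 0.

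The MIS12 complex links NDC80 to the centromere. Dsn1 (ENSMUSG00000027635, chromosome 2) was its most abundant listed member per kilobase. It had 320 CPM in slimming oocytes and 429 CPM in control oocytes, 1.37-fold lower at a log2 ratio of -0.45 (-0.50 to -0.41). Mis12 itself had 126 counts (6.01 CPM) in slimming oocytes and 195 counts (9.63 CPM) in control oocytes, 1.63-fold lower at a log2 ratio of -0.71 (-1.05 to -0.38). Nsl1 had 44 counts in slimming oocytes and 33 in control oocytes, with an interval that included 0. Per kilobase, Dsn1 exceeded Mis12 60.7-fold in slimming oocytes and 50.7-fold in control oocytes. With other annotated transcripts this ratio ran from 28.6 to 76.9 in slimming oocytes and from 23.9 to 64.3 in control oocytes. Derl2 shares 231 exon bases with Mis12 on the opposite strand, and no source used here says whether strand was used in counting.

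The 7 expressed spindle kinases and assembly factors had a median log2 ratio of -0.25. Their intervals lay below 0 for 4, above 0 for 2 and on both sides of 0 for 1, where 35.1% of expressed genes and 43.1% of genes of at least 100 CPM had an interval below 0. Aurka had 348 CPM in slimming oocytes and 434 CPM in control oocytes, 1.28-fold lower at a log2 ratio of -0.35 (-0.40 to -0.31). Tpx2 (ENSMUSG00000027469, chromosome 2), which activates Aurora A on microtubules, had 376 CPM in slimming oocytes and 437 CPM in control oocytes (log2 -0.25, -0.29 to -0.21). Ckap5, the microtubule polymerase, had 93.1 CPM in slimming oocytes and 116 CPM in control oocytes (log2 -0.35, -0.44 to -0.26). Numa1 (ENSMUSG00000066306, chromosome 7), which focuses microtubules at the poles, had 202 CPM in slimming oocytes and 264 CPM in control oocytes, 1.34-fold lower at a log2 ratio of -0.42 (-0.48 to -0.36).

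Tacc3, which Aurora A places on microtubules together with CKAP5, was under the minimum level. It had 109 counts (5.20 CPM) in slimming oocytes and 178 counts (8.79 CPM) in control oocytes, 1.72-fold lower at a log2 ratio of -0.79 (-1.15 to -0.44). Tacc3 shares 289 exon bases with Tmem129 on the opposite strand.

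The other genes of this role were near equal or above 0. Plk1 (ENSMUSG00000030867, chromosome 7), the polo kinase of kinetochores and poles, had 254 CPM in slimming oocytes and 217 CPM in control oocytes (log2 0.20, 0.14 to 0.26). Haus1, a subunit of the augmin complex that branches microtubules, had 79.1 CPM in slimming oocytes and 66.0 CPM in control oocytes (log2 0.23, 0.13 to 0.34). Plk4, the kinase of centriole duplication, was nearly equal at 14.0 CPM in slimming oocytes and 13.9 CPM in control oocytes. Its log2 ratio of -0.02 turned sign with scaling by total count. Cks2, the small CDK partner that mouse oocytes need to leave meiosis I, had 185 counts (8.83 CPM) in slimming oocytes and 182 counts (8.99 CPM) in control oocytes, with an interval that included 0.

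The motors and midzone genes had the smallest median size of the log2 ratio of the 5 roles, 0.12 regardless of sign, and 4 of the 5 expressed ones were below 0. Prc1 (ENSMUSG00000038943, chromosome 7), which bundles antiparallel microtubules in the midzone, had 575 CPM in slimming oocytes and 638 CPM in control oocytes (log2 -0.18, -0.22 to -0.14). Kif20a, the midzone kinesin that carries the passenger complex, had 383 CPM in slimming oocytes and 408 CPM in control oocytes (log2 -0.12). Cenpe, the kinesin that carries chromosomes to the spindle equator, had 274 CPM in slimming oocytes and 278 CPM in control oocytes (log2 -0.05, -0.11 to -0.0013). Kif2c, a depolymerase at centromeres, had 91.5 CPM in slimming oocytes and 96.3 CPM in control oocytes (log2 -0.11). Kif18a, which dampens chromosome movement, stood above 0, with 26.4 CPM in slimming oocytes and 20.4 CPM in control oocytes, 1.27-fold higher (log2 0.34, 0.16 to 0.53). Kif11, the motor that pushes the poles apart, was scarce, with 78 counts in slimming oocytes and 86 in control oocytes.

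**Figure D4:**
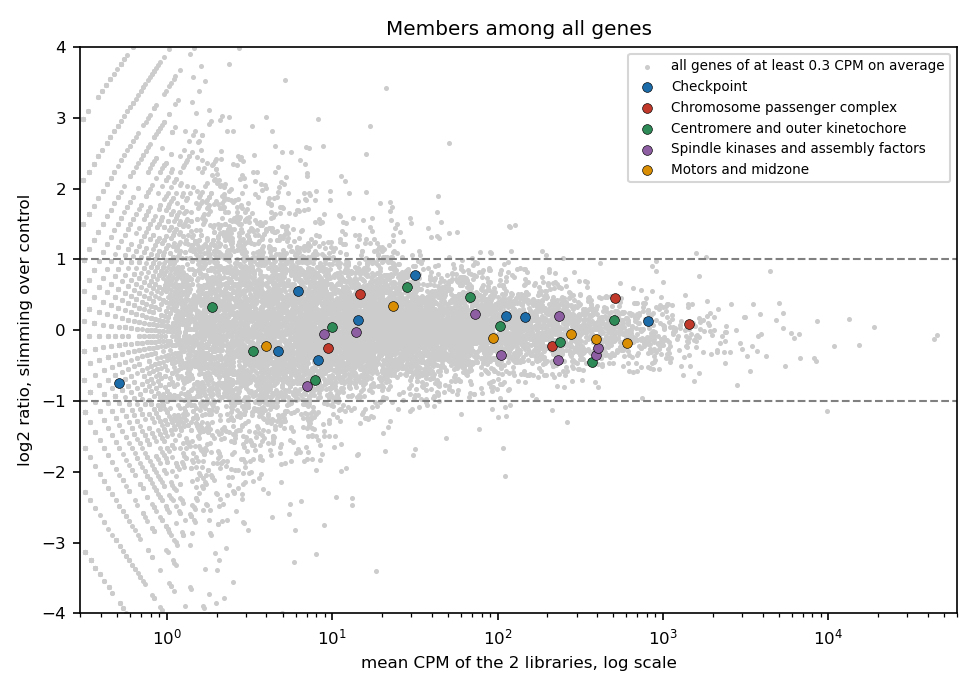
Log2 ratio of slimming over control against the mean level in CPM (log axis) for all genes of at least 0.3 CPM on average (grey) and for the 39 members (coloured by role). Dashed lines mark 2-fold, and 388 grey genes beyond a log2 ratio of 4 in either direction lie outside the plot. The coloured points stay between the dashed lines at every level, while the grey cloud widens toward low levels.

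Over all expressed genes, longer transcripts had lower log2 ratios. With the genes in 5 equal groups by length, the median was 0.18 for the shortest transcripts (up to 1736 bases) and -0.09 for the longest (5221 bases or more). Across 5595 genes of these same libraries Pearson's r with log2 length was -0.20 and Spearman's rho -0.22. Over the 29 expressed members r was -0.12 and rho -0.13. With the trend over all genes removed, the 5 expressed checkpoint members were still all above 0, with a median of 0.24. The spindle kinases and assembly factors had a median of -0.21, with 4 of 7 below 0. Birc5 then stood at 0.50, Spc24 at 0.55, Dsn1 at -0.44, Aurka at -0.42, Numa1 at -0.33 and Ckap5 at -0.25. Several values moved by over 1.5 times, among them those of 4 genes with short transcripts. Cks2 stood at -0.33 with the trend removed and at -0.06 before. Haus1 stood at 0.08 with the trend removed and at 0.23 before, Cenpa at 0.05 with it removed and 0.14 before, and Cdca8 at 0.01 with it removed and 0.08 before. Mad2l1 moved the other way, at 0.30 with the trend removed and 0.19 before. Plk4, Cenpe and Spc25, all close to equal, turned sign. The exons of 12 members overlap another annotated gene. The longest overlaps were those of Kif20a with Cdc23 (1271 bases), of Prc1 with Rccd1 (911 bases), of Tacc3 with Tmem129, of Cdca8 with 9930104L06Rik (232 bases) and of Mis12 with Derl2, all on the opposite strand, so these counts carry that uncertainty. In the authors' deposited table the scaled log2 ratio of the 39 genes ran from -0.76 for Tacc3 to 0.81 for Mad1l1.

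The wider pathway was read from 94 further genes in 5 groups. Of these, 93 had a count and 55 were expressed. Of the 55, 1 was at least 2-fold higher, against 2.73% of expressed genes, and 0 were at least 2-fold lower, against 1.94%. Their median log2 ratio was 0.04. The gene past 2-fold was Bora (chromosome 14), which lets Aurora A activate PLK1. It had 693 counts (33.1 CPM) in slimming oocytes and 273 counts (13.5 CPM) in control oocytes, a log2 ratio of 1.26 (1.06 to 1.47). Among the members on either side of Bora, Aurka was lower and Plk1 slightly higher, as given above. Clasp2, which stabilises microtubules at kinetochores and is named after its value was seen, lay just inside the limit. It had 629 counts in slimming oocytes and 1188 in control oocytes, at a log2 ratio of -0.998 (-1.14 to -0.86).

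The genes of highest CPM in each group differed less than Bora and Clasp2. In the inner kinetochore and centromere group, Cenpn, which binds CENP-A nucleosomes, had 1136 CPM in slimming oocytes and 1153 CPM in control oocytes. Cenph, of the same inner network, had 127 CPM in slimming oocytes and 136 CPM in control oocytes. In the outer kinetochore and checkpoint group, Bod1, a regulator of chromosome biorientation with a named pseudogene, had 1781 CPM in slimming oocytes and 1763 CPM in control oocytes. Mad2l1bp (p31comet), which takes Mad2 out of the checkpoint complex, had 175 CPM in slimming oocytes and 143 CPM in control oocytes (log2 0.26, 0.19 to 0.33). That group had a median log2 ratio of 0.19 over 9 expressed genes, of which 6 were above 0 and 3 below. The medians of the other groups lay closer to that of all expressed genes. They were -0.05 for the inner kinetochore and centromere and -0.01 for spindle poles and microtubule nucleation. For microtubule regulators and the Ran pathway the median was 0.06, and for motors and cytokinesis 0.02.

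At the spindle poles, Haus4 of the augmin complex had 965 CPM in slimming oocytes and 857 CPM in control oocytes (log2 0.14). Tubgcp4 of the gamma-tubulin ring had 713 CPM in slimming oocytes and 1016 CPM in control oocytes (log2 -0.54, -0.57 to -0.51); it overlaps Trp53bp1 over 2130 exon bases on the opposite strand. Mapre1 (EB1), which tracks growing microtubule ends, had 250 CPM in slimming oocytes and 399 CPM in control oocytes (log2 -0.71, -0.76 to -0.66). The ratio of Mapre1 lay below percentile 5 of all expressed genes (-0.69). Kpnb1, the importin beta through which RAN frees spindle factors, was near equal at 79.6 CPM in slimming oocytes and 74.5 CPM in control oocytes. The centralspindlin pair of cytokinesis had 742 CPM in slimming oocytes and 717 CPM in control oocytes for Kif23, and 301 CPM in slimming oocytes and 352 CPM in control oocytes for Racgap1.

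**Figure D5:**
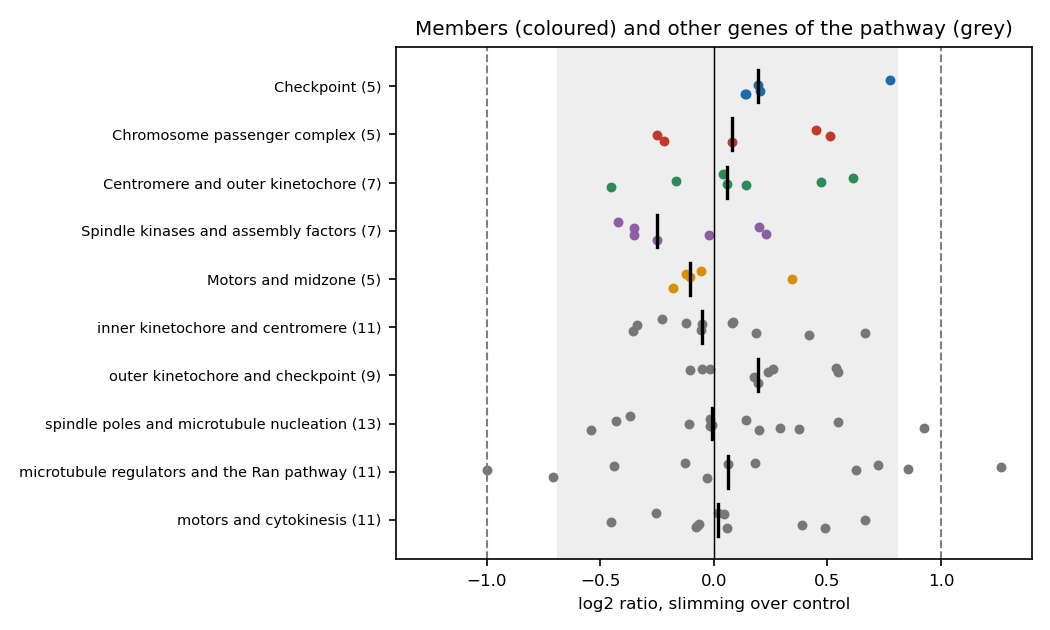
Log2 ratio of slimming over control for expressed members by role (coloured) and for expressed genes of the wider pathway by group (grey), with the number of genes in brackets and the median as a black tick. The grey band spans percentiles 5 to 95 of all expressed genes and the dashed lines mark 2-fold. Medians of the members' roles run from -0.25 for spindle kinases and assembly factors to 0.19 for the checkpoint, and Bora is the point to the right of the 2-fold line.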

How the data were processed

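Per the labels' protocols, mRNA was primed with an oligo(dT) stretch of 24 bases, amplified for 18 and then 14 PCR cycles and read with the SOLiD 4 system. The submitters' processing notes name mm9 as genome build; aligner and counter: not given in the sources used here. A table deposited by the authors holds unnormalised counts per gene, slimming first, per the file headers, with blanks for 18210 genes, taken as no count. The deposited log2 ratio used for comparison was scaled by the authors. Symbols came from GENCODE vM21 (GRCm38), and no coordinates were moved between builds.

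TMM factors were 1.01 for slimming and 0.989 for control (edgeR 4.0.16, R 4.3.3). A count of 0 allows up to 3 counts, 0.143 CPM for slimming and 0.148 CPM for control. Levels per kilobase use the longest coding transcript, and oligo(dT) priming may weight transcript ends. With 1 library per group no p-value was computed. The calculation of the fold rule and intervals was checked on simulated counts that varied by counting error alone. PCR duplicates and differences between animals were not simulated, so that check does not cover them. Python 3.11.15, numpy 2.4.6, scipy 1.17.1, pandas 2.3.3 and matplotlib 3.10.9 were used. All members may be named. Of the other pathway genes, those at least 2-fold apart and the 2 most abundant of each group are named, and any other was chosen after its value was seen. The members and lists were chosen with earlier results of these data known. Alternatives were total-count and DESeq2 1.42.0 scaling, a pseudocount of 1, minimum levels of 1 CPM, 30 CPM and none, a 1.5-fold limit and removal of the length trend. A further promoter window is not reported here.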

Additional observations from a re-analysis of the deposited data

How the results depend on the processing

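No member was 2-fold apart under any scaling, pseudocount or minimum level tried. At a 1.5-fold limit 2 of the 29 expressed members were higher and 0 lower. Under 10 CPM, and so outside that count, Tacc3 was 1.72-fold lower, Bub1 1.68-fold and Mis12 1.63-fold. The median log2 ratio of the expressed members, minus that of all expressed genes, was 0.04 as reported and ran from -0.05 (minimum 1 CPM) to 0.05 (minimum 30 CPM). For the other spindle and kinetochore genes the count at least 2-fold higher was 1 of 55 as reported. It was 4 of 85 with a minimum of 1 CPM (9.43% of all genes tested), 5 of 93 with no minimum (17.7%) and 7 of 55 at a 1.5-fold limit (10.3%). The count at least 2-fold lower was 0 of 55 as reported, 7 of 85 with a minimum of 1 CPM (8.96%), 10 of 93 with no minimum (20.9%) and 2 of 55 at a 1.5-fold limit (7.16%). The lower minimums let in genes of few counts, and the share of all genes past the limit is larger there too. Not all of these genes had a counting interval that included 0, as that of Haus2 did. Cenpt had 3 counts in slimming oocytes and 49 in control oocytes (log2 -3.90, -6.44 to -2.48). Tubgcp2 had 44 counts in slimming oocytes and 3 in control oocytes (log2 3.59, 2.15 to 6.13). These genes are named after their values were seen. Of the 39 log2 ratios, 1 changed sign with total-count scaling, 0 with DESeq2 size factors, 0 with a pseudocount of 1 and 3 with the length trend removed. Depth limits Bub1, Nsl1, Cenpb, Kif11 and Zwint most, each with about 100 counts or fewer per library. No paired analysis was possible because each group is 1 pooled library.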
